A study of Rattus norvegicus with 7 samples.

Results

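Genes that build and crosslink the extracellular matrix were compared between meibomian glands of rats exposed to ultraviolet B light (UVB) and those of untreated controls. The group was defined by a list of 41 gene symbols, chosen with earlier results of these data known. Of these, 36 were analysed, of 17245 genes read in both deposited tables. Col1a2, Col6a3, Lama3, Hspg2 and Ogn were not analysed here. The 7 samples were glands of wild-type female Sprague-Dawley rats aged 3 months, 4 labelled control and 3 labelled UVB. In the UVB group the shaved upper lids received 300 mJ/cm2 in a session of 5 min on each of 5 days, and the glands were then dissected and frozen. Whether control lids were shaved, and how long after the last exposure the glands were taken, are not given in the sources used here. Nor do the labels say that each library came from a separate animal, so p-values measure the spread between these samples, which may in part be technical. Since the column headings give each library's group without its number, the libraries carry letters here (control a, b, c and d; UVB a, b and c), which pair nothing. Library totals ran from 20680237 to 28784941 counts.

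The meibomian gland is a modified sebaceous gland in the eyelid whose acini make the lipid of the tear film. Each acinus and duct rests on a basement membrane, a sheet of laminin and type IV collagen joined by nidogen, and lies in a stroma of fibrils of type I, III and V collagen made largely by fibroblasts. Small leucine-rich proteoglycans coat the fibrils and limit their thickness, lysyl oxidases join collagen and elastin chains through modified lysines, and matricellular proteins bind the matrix and cells without building fibrils themselves.

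Sequences upstream of the genes are given for the members on which the results turn: the adjacent pair Col4a1 and Col4a2, which moved together, the member with the largest change (Lum), and the member that fell (Postn). They come from RefSeq on build GRCr8, which is not the build that the submitters' processing notes name (rn7). The windows were matched to the members by NCBI gene ID. Col4a1 (plus strand) and Col4a2 (minus strand) start head to head, with 76 bases between their starts at chr16:84885521-84885596, printed on the plus strand with a GC box (GGGCGG, here on the minus strand) in capitals. The 250 bases before the start of Lum lie at chr7:34245456-34245705 on the plus strand, with a CCAAT box (here on the minus strand, so read as ATTGG) in capitals. Those before the start of Postn lie at chr2:140677811-140678060 on the plus strand, with a TATA box (TATAAA) in capitals.
Col4a1 to Col4a2: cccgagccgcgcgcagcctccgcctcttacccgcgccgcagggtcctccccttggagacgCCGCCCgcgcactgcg
Lum: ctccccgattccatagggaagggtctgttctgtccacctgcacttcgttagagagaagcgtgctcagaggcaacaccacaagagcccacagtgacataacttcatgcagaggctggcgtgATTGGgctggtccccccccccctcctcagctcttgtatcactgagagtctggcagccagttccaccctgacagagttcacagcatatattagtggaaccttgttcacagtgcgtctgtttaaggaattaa
Postn: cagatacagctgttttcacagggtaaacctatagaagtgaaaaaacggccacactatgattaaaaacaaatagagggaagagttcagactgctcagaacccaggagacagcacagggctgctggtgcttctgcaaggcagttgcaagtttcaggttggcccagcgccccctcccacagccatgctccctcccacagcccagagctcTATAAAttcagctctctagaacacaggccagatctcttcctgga

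Of the 36 members, 23 had a window of 250 bases in the RefSeq table, which holds windows for 27457 genes. A window was counted once for each motif it held on either strand, whether or not it overlapped another motif. TATAAA was in 3 of 23 members (Col17a1, Postn and Tnc), or 13.0%, against 13.1% of all windows. CCAAT was in 9 of 23 (39.1%, against 34.3%), Lum, Col4a1 and Col4a2 among them. GGGCGG was in 13 of 23 (56.5%, against 32.4%), among them 6 basement membrane genes: Col4a1, Col4a2, Col18a1 and Nid1, which rose, and Col7a1 and Lama5, which did not pass. The AP-1 motif TGANTCA was in 1 of 23 (4.35%, against 6.36%), Col6a1. The windows of Col4a1 and Col4a2 both hold the 76 bases between their starts, so the GC box there was counted for both. All members were tested genes, while the background holds every gene with a window, tested here or not. The shares are therefore not like for like. These are matches of letters in a window, not measured binding sites.

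After UVB, 11 members rose and 1 (Postn) fell at a Benjamini-Hochberg adjusted p under 0.05 in edgeR's quasi-likelihood test, and 24 did not pass. Lum, Dcn, Col4a1, Col4a2, Col18a1, Nid1, Col5a2, Lox, Fn1, Thbs2 and Fbn1 were the risers. All 36 passed the filter on low counts, and the smallest count of any member in any library was 87 (Lox, control a). Of all 13709 genes tested, 13.0% were called, 6.30% higher and 6.74% lower, against 33.3% of the members (30.6% higher and 2.78% lower). The members were chosen with earlier results of these data known, so this difference is a description and not a test of the list. The median log2 fold change of the members was 0.33, against -0.0058 over all tested genes, and 29 of 36 lay above 0. Without UVB a the members' median was 0.19. Only Lum, Lox and Thbs2 of the called members changed by 2-fold or more. In 12 members every UVB library exceeded every control and in 1 every UVB library was below, together 36.1% of members. Over all tested genes the groups were apart in 26.6%, 12.8% higher and 13.8% lower. In glands taken whole, more cells of a type and more RNA per cell cannot be told apart.

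**Figure D1:**
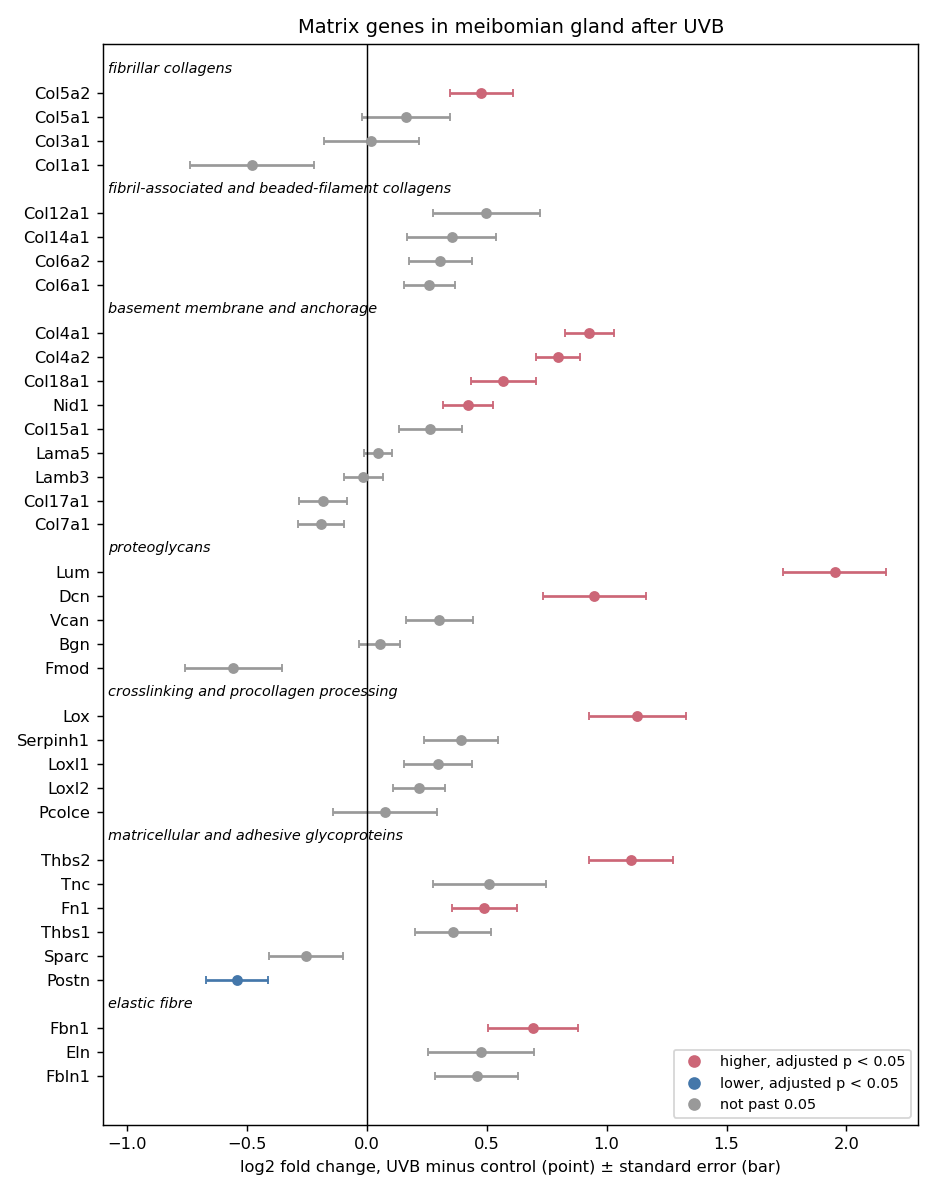
Log2 fold change (UVB minus control, x axis) with its standard error for the 36 members, grouped by role and coloured by call in edgeR at adjusted p under 0.05. The points run from -0.56 (Fmod) to 1.95 (Lum), and 11 of the 12 called members lie to the right of 0.

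Together the members held a small part of the measured transcripts: 0.370% ± 0.048 of TPM in controls (SD, n = 4) and 0.402% ± 0.086 after UVB (SD, n = 3). In library order the values were 0.304%, 0.363%, 0.401% and 0.411% in controls and 0.495%, 0.327% and 0.384% after UVB, so the groups overlapped. TPM, a measure of transcript abundance, is corrected for gene length and allows levels to be set beside each other across genes. By mean TPM in controls, Sparc stood highest (736 ± 95.2), followed by Col1a1 (491 ± 112), Col3a1 (394 ± 70.9) and Dcn (296 ± 56.9). After UVB the order was Sparc (621 ± 144), Dcn (575 ± 170), Col3a1 (401 ± 115) and Col1a1 (353 ± 129), and the SDs of Dcn, Col3a1 and Col1a1 overlap. Dcn thus moved from the fourth place to the second, and Lum from place 17 to place 8 of 36. The lowest member in both groups was Vcan, at 2.86 ± 0.336 and 3.59 ± 0.495.

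Among the fibrillar collagens, 1 of 4 rose (Col5a2) and none passed the test downward; in edgeR none of the 4 was lower even at an unadjusted p under 0.05, and DESeq2 called none lower either. Col1a1 encodes a chain of type I collagen, the main fibril protein of skin and lid stroma. Its level in CPM (counts divided by the TMM-scaled library total) was 1300.0, 1564, 1980.0 and 2150.0 in controls, in library order, and 1728, 1181 and 853 after UVB. The ranges overlapped, since UVB a lay above controls a and b while UVB b and c lay below all controls. The log2 fold change was -0.48 (SE 0.26), which did not pass (edgeR adjusted p = 0.260; 0.0775 to 0.503 over the 16 alternative settings).

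Col3a1, the type III chain that mixes into thin fibrils, measured 874, 1180.0, 1317 and 1255 CPM in controls and 1516, 1113 and 886 after UVB. The log2 fold change of Col3a1 was 0.02 (SE 0.20, adjusted p = 0.963 in edgeR), and the sign turned to -0.21 without UVB a and to -0.092 without control a. Col5a1 and Col5a2 encode chains of type V collagen, which starts fibrils and limits their width. Col5a2 measured 54.3, 65.3, 69.9 and 77.1 CPM in controls and 108, 81.0 and 89.3 after UVB, with every UVB library above every control. It rose 1.39-fold (log2 0.48, SE 0.13, edgeR adjusted p = 0.045). Leaving out control a, b or c or UVB a or c moved that adjusted p to between 0.0536 and 0.116. Col5a1 overlapped between the groups, at 43.2 to 69.4 CPM and 53.6 to 78.1 CPM, with a log2 fold change of 0.16 (SE 0.18) that turned to -0.026 without UVB a. The median of the 4 genes was 0.09.

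The fibril-associated collagens Col12a1 and Col14a1, which decorate fibril surfaces, and the beaded-filament chains Col6a1 and Col6a2 all had log2 fold changes above 0, from 0.26 to 0.50, and none passed the test. At an unadjusted p under 0.05, 2 of 4 were higher in edgeR and 4 of 4 in DESeq2, which also called none. Col6a2, the most abundant by TPM in controls, measured 119, 131, 169 and 157 CPM in controls and 205, 164 and 166 after UVB (log2 0.31, SE 0.13, edgeR adjusted p = 0.157). Its ranges overlapped because UVB b and c lay below control c. Col12a1 had the largest change of the 4, from 35.4, 49.3, 39.0 and 46.7 CPM in controls to 71.6, 38.4 and 70.6 after UVB. UVB b lay within the controls and UVB a and c well above them (log2 0.50, SE 0.22, edgeR adjusted p = 0.183). Without UVB b the edgeR adjusted p of Col12a1 was 0.0156, and over its 16 alternatives the largest was 0.396.

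Within the basement membrane and its anchors, 4 of 9 genes rose: both chains of the type IV collagen network, Col18a1 and Nid1. No gene of the role passed downward, nor was any lower at an unadjusted p under 0.05 in edgeR or called lower by DESeq2. Col4a1 measured 102, 94.4, 125 and 108 CPM in controls and 214, 181 and 219 after UVB. Col4a2 followed at 89.4, 79.6, 104 and 91.3 CPM in controls and 164, 143 and 168 after UVB. For both, the lowest UVB library stood clear of the highest control. Col4a1 rose 1.90-fold (log2 0.93, SE 0.10, edgeR adjusted p = 0.0023) and Col4a2 1.74-fold (log2 0.80, SE 0.093, edgeR adjusted p = 0.00234). Both calls held in all 16 alternatives, with adjusted p up to 0.00996 and 0.0116. These 2 genes were the only members whose deposited counts were not whole in any library, while the other 34 were whole in every library.

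Col18a1, a heparan sulfate collagen of vessel and epithelial basement membranes, measured 91.0, 93.6, 86.0 and 107 CPM in controls and 160, 108 and 153 after UVB. The groups were apart by a narrow margin, UVB b at 107.5 CPM against control d at 106.7. The gene rose 1.48-fold (log2 0.57, SE 0.13, edgeR adjusted p = 0.0293). Its adjusted p lay between 0.0624 and 0.0796 when control a, b or c or UVB a or c was left out. Nid1, which bridges laminin and type IV collagen, measured 77.6, 104, 93.4 and 99.9 CPM in controls and 130, 113 and 135 after UVB. It rose 1.34-fold (log2 0.42, SE 0.10, edgeR adjusted p = 0.0303), and leaving out control c or d or UVB a or c moved its adjusted p to between 0.0551 and 0.0889.

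None of the genes that fix epithelium to the sheet passed the test. Col17a1, a transmembrane collagen of hemidesmosomes and the most abundant gene of the role, measured 560, 731, 583 and 618 CPM in controls and 532, 521 and 593 after UVB. The groups overlapped, with a log2 difference of -0.18 for Col17a1 (SE 0.10, adjusted p = 0.254 in edgeR). Col7a1, the protein of anchoring fibrils, had -0.19 (SE 0.096, edgeR adjusted p = 0.214). Lamb3, a chain of the anchoring laminin of surface epithelia, had -0.01 (SE 0.080), and its sign turned, to between 0.0037 and 0.029, without control b or c or UVB a or b. Lama5, a laminin chain found in most mature basement membranes, had 0.05 (SE 0.059), and Col15a1, a relative of Col18a1 found between basement membrane and stroma, 0.27 (SE 0.13, edgeR adjusted p = 0.209). The median of the 9 genes was 0.27.

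Proteoglycans held the largest single change. Lumican (Lum), a keratan sulfate proteoglycan that coats collagen fibrils, measured 23.0, 31.7, 27.4 and 31.1 CPM in controls and 139, 73.0 and 117 after UVB. Every UVB library exceeded the highest control by a wide margin, and UVB b was the lowest of them. Lum rose 3.87-fold (log2 1.95, SE 0.21, edgeR adjusted p = 0.00348), and the call held in all 16 alternatives, at log2 1.75 to 2.18 and adjusted p up to 0.0162. Decorin (Dcn), its abundant dermatan sulfate relative, measured 196, 284, 304 and 293 CPM in controls and 651, 364 and 546 after UVB. Dcn rose 1.93-fold (log2 0.95, SE 0.22, edgeR adjusted p = 0.029), with the groups apart. The adjusted p of Dcn lay between 0.0564 and 0.075 without control b, c or d or UVB a or c.

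The other proteoglycans did not pass. Biglycan (Bgn), the close relative of decorin, measured 163, 198, 180.2 and 191 CPM in controls and 198, 169 and 203 after UVB, or 0.05 in log2 terms (SE 0.086, adjusted p = 0.724 in edgeR). Fibromodulin (Fmod), which competes with lumican for a site on collagen, lay on the other side of 0. It measured 17.9, 15.5, 17.9 and 21.4 CPM in controls and 9.05, 11.1 and 16.8 after UVB, so UVB a and b were below all controls and UVB c among them. In log2 terms Fmod differed by -0.56 (SE 0.20, adjusted p = 0.106 in edgeR), with 0.0179 without UVB c, 0.0458 in DESeq2 and at most 0.266 over the 16 alternatives. Versican (Vcan), a large chondroitin sulfate proteoglycan of loose matrix, had 0.30 (SE 0.14, edgeR adjusted p = 0.187). Summed over the 5 genes, proteoglycan TPM was 362, 490.1, 511 and 497 in controls and 1018, 590.4 and 871 after UVB, and Dcn and Lum made up most of it.

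**Figure D2:**
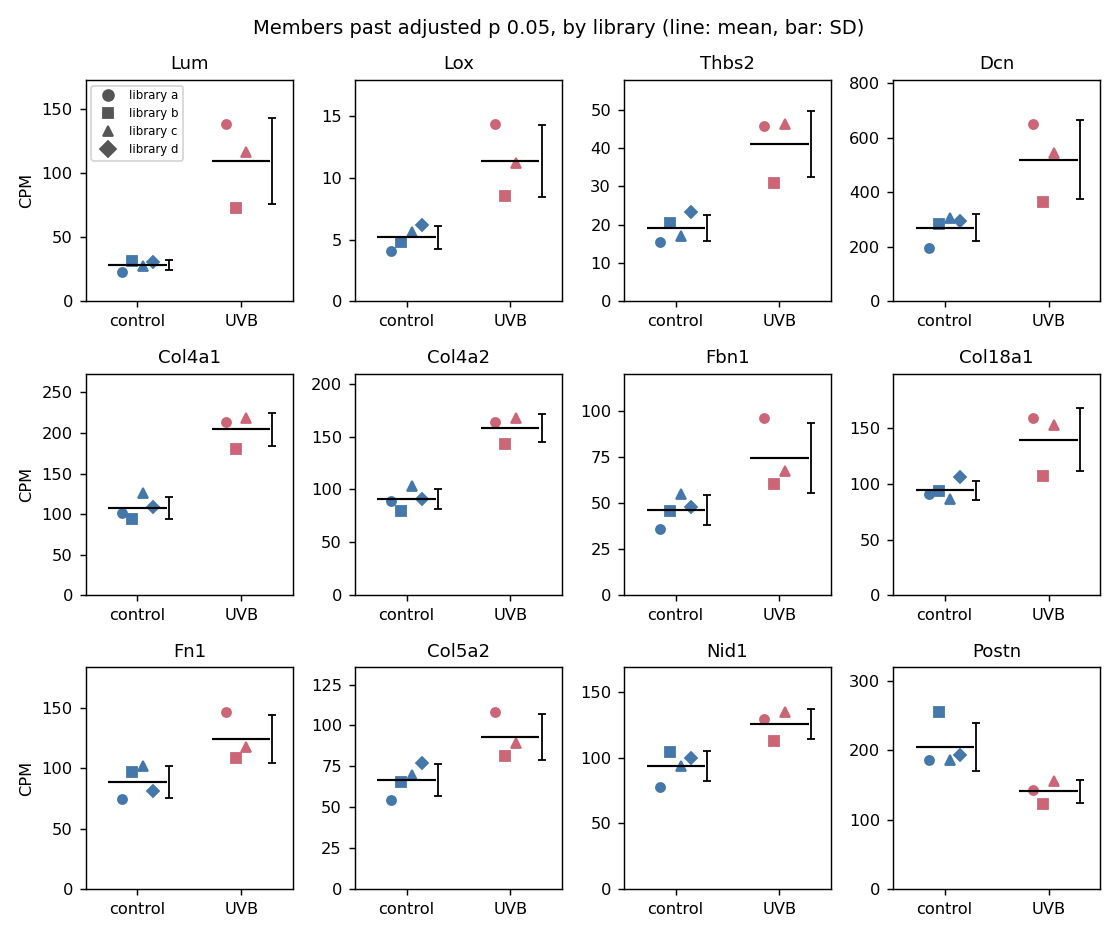
Scaled counts (CPM, y axis from 0) of the 12 called members in each control and UVB library, with the group mean (line) and SD (bar). In all 12 panels the groups are apart, and UVB b is the lowest UVB library in every panel.

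Of the enzymes and helpers that process and crosslink collagen, 1 of 5 rose, lysyl oxidase (Lox); in edgeR none was lower at an unadjusted p under 0.05, and DESeq2 called none lower. Lox measured 4.06, 4.81, 5.62 and 6.20 CPM in controls and 14.4, 8.52 and 11.2 after UVB, with every UVB library above every control. It rose 2.19-fold (log2 1.13, SE 0.20, edgeR adjusted p = 0.0097), and the call held in all 16 alternatives with adjusted p up to 0.0289. Serpinh1, the collagen chaperone of the endoplasmic reticulum, was the most abundant gene of the role by TPM. It measured 98.4, 109.6, 114 and 135 CPM in controls and 189, 134 and 127 after UVB, and only UVB a lay above all controls (log2 0.39, SE 0.15, edgeR adjusted p = 0.133). Loxl1, the lysyl oxidase of elastic fibres, had a log2 fold change of 0.30 (SE 0.14), Loxl2, which acts on type IV collagen, 0.22 (SE 0.11), and Pcolce, which speeds removal of the procollagen tail, 0.08 (SE 0.22). None of these 3 passed, and the sign of Pcolce turned to -0.18 without UVB a and to -0.050 without control a.

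Matricellular and adhesive glycoproteins moved both ways: Thbs2 and Fn1 rose, Postn fell, and 3 of 6 did not pass. Thrombospondin 2 (Thbs2), an inhibitor of vessel growth that also affects fibril assembly, measured 15.6, 20.4, 17.1 and 23.3 CPM in controls and 45.7, 31.0 and 46.3 after UVB. It rose 2.15-fold (log2 1.10, SE 0.18, edgeR adjusted p = 0.00797), and held in all 16 alternatives with adjusted p up to 0.0285. Fibronectin (Fn1), on which cells assemble new matrix, measured 74.1, 97.0, 102 and 81.0 CPM in controls and 147, 108 and 118 after UVB. Fn1 rose 1.40-fold (log2 0.49, SE 0.14, edgeR adjusted p = 0.0488), close to the threshold. Leaving out any single library, control a to d or UVB a to c, moved the adjusted p of Fn1 above it, to between 0.0516 and 0.121.

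Periostin (Postn), a matricellular protein that promotes collagen crosslinking, was the only member called lower. It measured 186, 256, 186 and 193 CPM in controls and 143, 123 and 156 after UVB, so the groups were apart. Control b stood well above the other controls. Postn fell by 0.54 on the log2 scale (SE 0.13, edgeR adjusted p = 0.0306), or 1.46-fold. Without control b the change was -0.42 (adjusted p = 0.0277), while without control d, UVB a or UVB b the adjusted p was between 0.0601 and 0.0968.

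Sparc, a collagen-binding glycoprotein and the most abundant member, measured 802, 749, 902 and 997 CPM in controls and 863, 554 and 751 after UVB. Its groups overlapped (log2 -0.26, SE 0.15, edgeR adjusted p = 0.306). Tenascin C (Tnc), a glycoprotein of injured and developing stroma, had 0.51 (SE 0.23, edgeR adjusted p = 0.196), with UVB a and c above all controls and UVB b, at 126 CPM, among them. Thrombospondin 1 (Thbs1), an activator of latent TGF-beta, had 0.36 (SE 0.16, edgeR adjusted p = 0.172).

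Elastic fibre genes all lay above 0, and 1 of 3 rose; none was lower at an unadjusted p under 0.05 in edgeR, and DESeq2 called none lower. Fibrillin 1 (Fbn1), the microfibril scaffold, measured 35.8, 45.5, 55.1 and 48.03 CPM in controls and 96.3, 60.4 and 67.3 after UVB, with the groups apart. Fbn1 rose 1.62-fold (log2 0.69, SE 0.19, edgeR adjusted p = 0.0482), close to the threshold. Leaving out any control, UVB a or UVB c moved the adjusted p of Fbn1 to between 0.0561 and 0.109. Elastin (Eln), the most abundant of the 3, measured 59.0, 66.9, 91.0 and 108 CPM in controls and 138, 101 and 101 after UVB (log2 0.48, SE 0.22, edgeR adjusted p = 0.198). Eln overlapped between groups through control d. Fibulin 1 (Fbln1), which binds elastin and fibronectin, measured 31.1, 39.2, 38.9 and 35.6 CPM in controls and 66.4, 42.9 and 40.3 after UVB. Its groups were apart but it did not pass (log2 0.46, SE 0.17, edgeR adjusted p = 0.122; 0.0475 in DESeq2, and at most 0.246 over 16 alternatives).

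Set side by side, the roles had median log2 fold changes of 0.09 (fibrillar), 0.33 (fibril-associated and beaded), 0.27 (basement membrane), 0.30 (proteoglycans), 0.30 (crosslinking and processing), 0.43 (matricellular) and 0.48 (elastic). Without UVB a the medians were -0.12, 0.17, 0.11, 0.17, 0.19, 0.26 and 0.31 in the same order. The fibrillar median was also -0.016 without control a, 0.19 without control c, 0.16 without UVB b and 0.21 without UVB c. Members within a role differed more than the medians did, since proteoglycans ran from -0.56 to 1.95 and basement membrane genes from -0.19 to 0.93. The libraries of a group were not alike: UVB a was the highest UVB library for 25 of 36 members and UVB b the lowest for 25, and control a was the lowest control for 28. The median deviation of members from the control mean was 0.55 on the log2 CPM scale in UVB a, 0.16 in UVB b and 0.19 in UVB c, and -0.25 in control a. Without UVB a, 5 of the 12 called members stayed past the threshold in edgeR (Lum, Lox, Thbs2, Col4a1 and Col4a2). In that fit 8.74% of all genes were called. With control a, b, c or d left out, 8, 7, 6 and 7 of the 12 calls stayed, beside 13.8%, 8.03%, 6.27% and 6.91% of all genes called. With UVB b or UVB c left out, 10 and 6 stayed, beside 7.57% and 8.47% of all genes. With no filter on low counts 10 stayed (10.3% of all genes called), and limma on log2(TPM + 1) without a filter left 5 (7.29%).

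**Figure D3:**
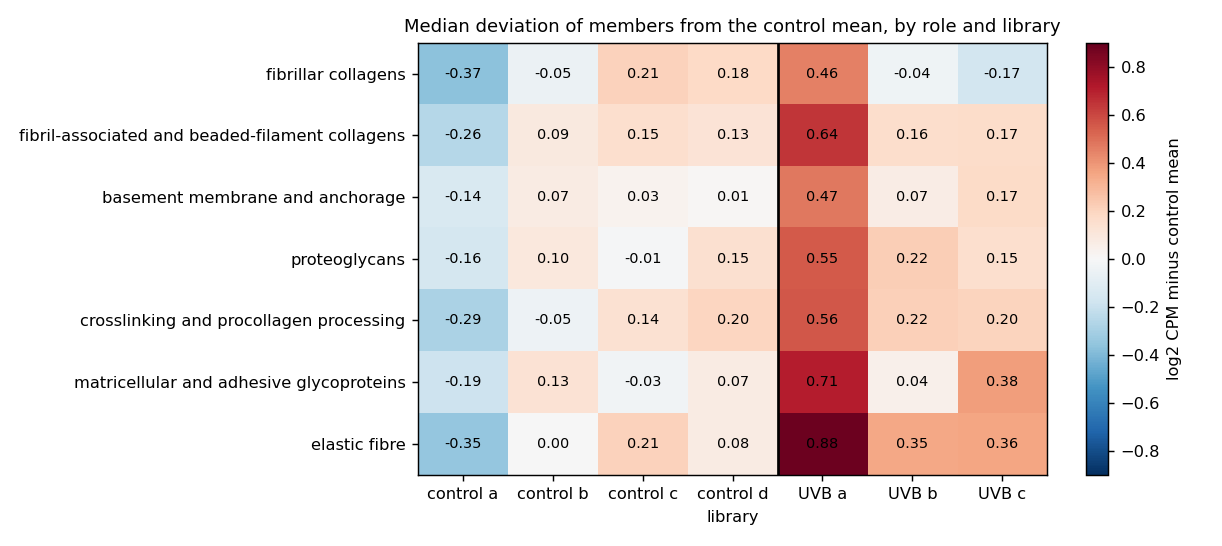
Median deviation of the members of each role from the control mean (log2 CPM, colour and number) in each of the 7 libraries. UVB a is the highest library and control a the lowest in every role, and UVB a runs from 0.46 (fibrillar collagens) to 0.88 (elastic fibre).

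**Figure D4:**
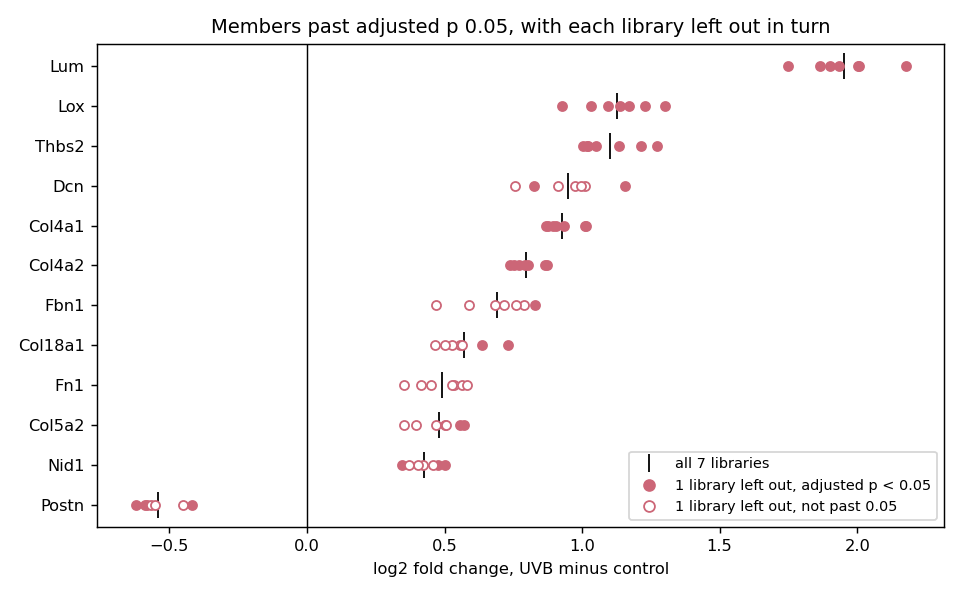
Log2 fold change (x axis) of the 12 called members with all 7 libraries (bar) and with each left out in turn (points, filled where edgeR's adjusted p stayed under 0.05). Lum, Lox, Thbs2, Col4a1 and Col4a2 have filled points throughout, and no point crosses 0.

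Ratios of TPM between members of the same library compare composition and do not depend on the library's total. Of 8 ratios chosen for their biology, 6 could be computed, and each was put to an exact permutation test (two-sided, all 35 assignments of libraries to groups), whose smallest possible p is 0.0286. Type III to type I collagen (Col3a1/Col1a1) was 0.815, 0.912, 0.805 and 0.709 in controls and 1.07, 1.14 and 1.26 after UVB. The ratio was below 1 in every control and above 1 in every UVB library, although neither gene passed on its own. It differed 1.43-fold (exact permutation p = 0.0286, adjusted over 6 ratios 0.0343). Type V to type I (Col5a1/Col1a1) went from 0.0325 ± 0.0033 (SD, n = 4) to 0.0527 ± 0.0120 (SD, n = 3), with the same exact permutation p and the groups apart.

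Lox relative to its substrate gene Col1a1 was 0.0108, 0.0107, 0.00984 and 0.01002 in controls and 0.0290, 0.0250 and 0.0459 after UVB. The groups were far apart, 3.11-fold by their means on the log scale (exact permutation p = 0.0286, adjusted 0.0343). Lum relative to Dcn was 0.102, 0.0962, 0.0778 and 0.0937 in controls and 0.187, 0.176 and 0.188 after UVB. The 3 UVB values lay close together although the level of each gene varied widely among these libraries, and the ratio was 2.00-fold higher (exact permutation p = 0.0286, adjusted 0.0343). The 2 chains of the type IV heterotrimer shifted little against each other. Col4a1/Col4a2 was 1.21 ± 0.032 in controls and 1.32 ± 0.020 after UVB (SD), a difference of 1.10-fold with the groups apart (exact permutation p = 0.0286, adjusted 0.0343). Col6a1/Col6a2 overlapped, at 0.838 ± 0.061 and 0.800 ± 0.032 (exact permutation p = 0.429).

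**Figure D5:**
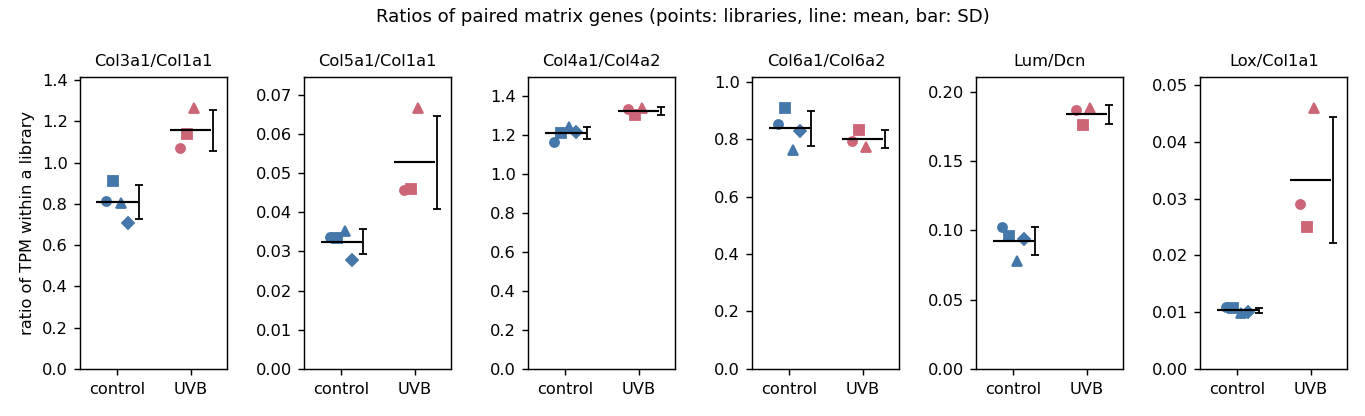
Ratio of TPM of 6 gene pairs (y axis from 0) in each library, with the mean (line) and SD (bar) of the 4 controls and 3 UVB libraries. The groups are apart in 5 panels and overlap for Col6a1/Col6a2.

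Other matrix genes, 90 of 99 listed with 85 tested, gave 16 higher and 7 lower in edgeR, with a median log2 fold change of 0.11 (0.042 without UVB a, 0.070 without UVB c and 0.18 without UVB b). Over all tested genes 6.30% were called higher and 6.74% lower, the shares to set beside the counts of each list below. Of the enzymes that modify collagen, 5 of 18 were higher and 1 lower. Plod1, a lysyl hydroxylase, went from 43.0 ± 0.885 to 60.2 ± 4.51 CPM (log2 0.49, SE 0.065, edgeR adjusted p = 0.00382), and Tgm2, a transglutaminase that joins matrix proteins, from 172 ± 15.8 to 114 ± 15 CPM (log2 -0.60, SE 0.10, edgeR adjusted p = 0.00786). Among further collagens 2 of 8 were higher and none lower (1 lower at an unadjusted p under 0.05, and none called lower by DESeq2). The short-chain collagen Col8a1, found around vessels, rose from 1.77 ± 0.214 to 6.64 ± 2.46 CPM (log2 1.89, SE 0.25, edgeR adjusted p = 0.00348), a change close in size to that of Lum.

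Further basement membrane genes were called 3 higher and 3 lower of 20, with a median of -0.03. Tinagl1, a glycoprotein of basement membranes, rose by 0.89 in log2 terms (SE 0.12, adjusted p = 0.00382 in edgeR), and Frem2, which anchors epidermis to dermis, had -0.81 (SE 0.14, edgeR adjusted p = 0.00871). Further proteoglycans gave 1 higher and 1 lower of 9: Srgn, a granule proteoglycan of blood cells, at 0.89 (SE 0.21), and Spock2, a secreted proteoglycan, at -0.75 (SE 0.16). Elastic fibre and microfibril genes also gave 1 and 1 of 13: Ltbp2 at 0.64 (SE 0.15) and Ltbp4 at -0.26 (SE 0.067), both binding proteins of the microfibril. Of 17 further glycoproteins 4 were higher and 1 lower. Matrix Gla protein (Mgp), an inhibitor of calcification, rose 2.02-fold (log2 1.01, SE 0.13, edgeR adjusted p = 0.00348), and Sparcl1, a relative of Sparc, had -0.24 (SE 0.066, edgeR adjusted p = 0.0409). Srgn, Spock2, Ltbp2, Ltbp4 and Sparcl1 each lost the call when 1 or more libraries were left out, with edgeR adjusted p up to 0.0881, 0.0513, 0.0888, 0.106 and 0.12.

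Markers of the cells that could supply this RNA also differed between the groups, and their part in the results above was not tested. Of 12 fibroblast markers, 4 were higher (Pdgfra, Pdgfrb, Thy1 and S100a4) and 2 lower (Pi16 and Gsn), and their summed level was 1642 to 2154 CPM in controls and 1298 to 1806 CPM after UVB. Gsn alone held 74.0% to 75.6% of that sum in controls and 60.2% to 63.0% after UVB. Without Gsn, a step chosen after the values were seen, the sum was 420.0 to 553 CPM in controls and 517 to 668 CPM after UVB, so the groups overlapped. Pdgfra, a receptor that marks fibroblasts, rose by 0.91 in log2 terms (SE 0.12, adjusted p = 0.00348 in edgeR). Endothelial markers were higher in 2 of 6 (Cdh5 and Tie1), with sums of 106 to 125 CPM in controls and 136 to 159 CPM after UVB. Of the others, Kdr, Egfl7 and Tek lay above 0 (log2 0.46, 0.38 and 0.24) and Emcn below it (-0.20). Smooth muscle markers were higher in 2 of 6 (Tagln and Des), with overlapping sums of 1018 to 1285 CPM in controls and 1064 to 1244 CPM after UVB. Acta2, Myh11 and Myl9 lay below 0 (log2 -0.16, -0.31 and -0.12) and Cnn1 above it (0.08). None of 5 pericyte markers passed in edgeR (2 higher at an unadjusted p under 0.05, 1 called higher by DESeq2; 240.2 to 276 and 252 to 311 CPM). Basal epithelial markers were higher in 3 of 6 (Krt14, Itga6 and Itgb4; 9442 to 11790.0 and 12000.0 to 12850.0 CPM). The other basal markers, Krt5, Dst and Tp63, lay below 0 (log2 -0.02, -0.30 and -0.09). For Dst every UVB library was below every control (unadjusted p = 0.0134 in edgeR), and DESeq2 called 1 basal marker lower. Krt14, at 5100 ± 478 CPM in controls and 7059 ± 343 after UVB, and Krt5, at 4536 ± 579 and 4469 ± 255, held most of the sum. Macrophage markers were higher in 4 of 9 (Mrc1, Cd163, C1qb and C1qc), with sums of 79.7 to 143 CPM in controls and 122 to 223 CPM after UVB. The other 5 did not pass in edgeR, and their groups overlapped. Cd68 and Csf1r lay below 0 (log2 -0.41 and -0.01), and Adgre1, C1qa and Aif1 above it (0.11, 0.85 and 0.58). DESeq2 called 5 macrophage markers higher and had 1 lower at an unadjusted p under 0.05.

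Lower calls fell on 1 of 3 adipocyte markers (Car3, listed as Ca3; 23.3 to 53.7 CPM in controls and 14.6 to 20.8 CPM after UVB) and 2 of 7 meibocyte markers (Awat2 and Plin2; 91420.0 to 112600.0 and 87120.0 to 106700.0 CPM). Of the 7 meibocyte markers, 3 lay above 0 and 4 below. Fasn (log2 0.32) and Pparg (0.22) were higher at an unadjusted p under 0.05 in edgeR, and DESeq2 called 1 meibocyte marker higher. Scd held most of the meibocyte sum, at 79750 ± 7649 CPM in controls and 77590 ± 10520 after UVB (log2 -0.04). The 5 skeletal muscle markers gave no call in edgeR, none at an unadjusted p under 0.05 and none in DESeq2 (2199 to 2956 and 1554 to 2679 CPM). The calls of Pdgfra, Pdgfrb, Thy1, Itgb4, Cd163, C1qb, Awat2 and Plin2 held with any 1 library left out, and the others were lost in 1 or more such fits, with edgeR adjusted p up to 0.135 (Itga6). Of all these markers only Lep, an adipocyte hormone, had 0 counts in any library, so the defining markers of the labelled tissue were present in every library.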

How the data were processed

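RNA of meibomian glands was sequenced in 4 control and 3 UVB samples. The authors deposited expected counts per gene, not normalised, and TPM values, of which the genes used hold 82.0% to 84.1% per library. FastQC, Trimmomatic, DRAGEN, Picard and build rn7 are named in the submitters' processing notes, without roles or versions; the annotation and strand handling are not given in the sources used here. Without strand, reads of a gene and an overlapping one cannot be told apart: 15 of 36 members overlap another gene in RefSeq GRCr8, among the called Col5a2, Col4a1, Col18a1, Dcn, Lox and Fbn1.

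Unquoted commas in gene names shift cells; each row's last 7 cells were therefore taken as its values, and 5 rows lacking a value were left out of each table. Of the deposited counts, 12.5% were not whole; they were rounded, a departure from the planned raw counts. Genes were tested in edgeR 4.0.16 (R 4.3.3; quasi-likelihood, robust, TMM, filterByExpr by group; limma 3.58.1 and DESeq2 1.42.0 as alternatives), two-sided, with Benjamini-Hochberg adjustment over all 13709 genes and a threshold of 0.05. The SE is the absolute log2 fold change over the square root of F. On simulated data, 78% of 200 genes changed 2-fold were recovered for this comparison (13617 genes), and 7.69% of calls were false. On the same simulated data DESeq2 recovered 83%, and 17.8% of its calls were false. No pair of libraries of a group agreed within sampling noise (chi-square per degree of freedom at least 10.9). Named with values are each called member and, per role, the most abundant by control TPM and the most changed; of other matrix lists, the called gene with the smallest p in each direction. The members and lists were chosen with earlier results of these data known. Alternatives were other tests, scalings, filters, units and each library left out.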

Additional observations from a re-analysis of the deposited data

Results flagged for a closer look

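Among 50 values examined in the 4 controls (a group of 3 is too small to examine), 2 had a library far from the others, where chance alone gives about 2.5. For Postn it was control b, at 255.9 CPM, while controls a, c and d lay between 185.5 and 192.6 CPM; the gap made up 0.898 of the whole range. For the summed TPM of the proteoglycans it was control a, at 361.6, while controls b, c and d lay between 490.1 and 511.3; here the gap made up 0.858 of the range.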

How the results depend on the processing

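No paired analysis was possible because the column headings do not give the labels' replicate numbers. Of 576 member log2 fold changes recomputed under 16 alternatives, 509 kept direction and side of the threshold, 54 fell below it, 4 passed it and 9 changed sign, all 9 among genes without a call: Col3a1 (-0.092 and -0.21), Col5a1 (-0.026), Lamb3 (0.0072, 0.029, 0.0037 and 0.010) and Pcolce (-0.050 and -0.18), each with a library left out; over the 7 such fits they ran from -0.21 to 0.19, -0.026 to 0.28, -0.070 to 0.029 and -0.18 to 0.23. DESeq2 kept all 12 member calls and added Fmod and Fbln1, so 2 were lower. It called 17.9% of all genes, against 13.0% in edgeR. Library size alone left 7 higher. On log2(TPM + 1) without a filter, limma called 571 genes and 0 members lower (2 members at an unadjusted p under 0.05; edgeR called 1), and 5 members in all, 5 of them higher. Of other matrix genes, 25 were higher in DESeq2, and 10, 10 and 9 in the log2 TPM fits with a pseudocount of 1, of 0.1 and with no filter; 4 were lower with library size alone and 4, 3 and 4 in those fits. With 1 library left out, genes called ran from 851 to 1898 (421 to 927 higher, 430 to 971 lower), members called from 5 to 11 (5 to 11 higher, 0 to 2 lower), and other matrix genes from 7 to 17 higher and 2 to 14 lower; the basement membrane median ran from 0.11 to 0.36. The log2 ratio differences then ran from 0.45 to 0.58 (Col3a1/Col1a1), 0.50 to 0.77 (Col5a1/Col1a1), 0.11 to 0.14 (Col4a1/Col4a2), 0.92 to 1.05 (Lum/Dcn) and 1.38 to 1.82 (Lox/Col1a1). Their adjusted exact permutation p was 0.08 or 0.12, and with 6 libraries this test cannot fall under 0.05 even before adjustment. The smallest count of any member in any library was 87.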
